A study of Homo sapiens with 2 samples.

Results

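miR-210 and both arms of miR-34a were followed in small RNA libraries of a human squamous carcinoma line, FaDu, which came from the hypopharynx and is written FadU in the labels. They were found by name in the deposited tables, as 3 of the 2038 mature miRNA names listed there. The sphere group was grown in DMEM-F12 without stated serum, with EGF and recombinant bFGF at 10 ng/ml each and N2 Plus Supplement, and the submitters describe its cells as cancer stem cells derived from spheres. The parental group was grown in RPMI-1640 with 10% FBS, under 95% air and 5% CO2. The labels state no atmosphere for the spheres. Both media held penicillin and streptomycin, and both groups are 1 cell line with 1 library each, so medium, serum, growth form and library cannot be told apart. With no replicate, no value below has a test between the conditions. The study set the groups side by side to find miRNAs that mark the cells of the spheres.

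A mature miRNA guides an Argonaute protein to mRNAs through its seed, bases 2 to 8 from its 5′ end, and lowers the output of those mRNAs. miR-210 is the miRNA most widely induced by hypoxia. Its gene is a direct target of the hypoxia-inducible factor HIF1A, and its best known target, ISCU, builds iron-sulfur clusters for mitochondrial respiration. miR-34a is known as a miRNA of the cellular stress response. Its 5p arm represses cell cycle and survival genes such as CDK6, CCND1, MET and BCL2.

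The mature sequences are shown first because the seed largely sets which mRNAs a miRNA binds, with the seed in capitals. They are RefSeq sequences on GRCh38.p14. The name miR-210 in the tables carries no arm and is read here as the 3′ arm, which held that name before the 5′ arm was named. The 5′ arm is not analysed here. All 3 sequences are 22 nt long.
miR-210-3p: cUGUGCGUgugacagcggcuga
miR-34a-5p: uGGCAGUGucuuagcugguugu
miR-34a-3p: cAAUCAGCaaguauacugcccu
Among 2351 distinct human mature sequences in the RefSeq table, the seeds of miR-210-3p and miR-34a-3p occurred in no other, so neither member has a seed family there. The seed of miR-34a-5p was shared by 2 others in that table, miR-449a and miR-449b-5p. miR-34c-5p is known to carry the same seed but is missing from that RefSeq table. The table is thus incomplete, and the seed counts hold only within it. In miR-34b-5p and miR-449c-5p the same 7 letters lay 1 base further in, at positions 3 to 9. Capitals mark these letters below.
miR-449a: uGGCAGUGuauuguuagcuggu
miR-449b-5p: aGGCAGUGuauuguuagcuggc
miR-34b-5p: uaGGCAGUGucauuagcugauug
miR-449c-5p: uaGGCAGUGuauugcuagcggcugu

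The 2 hairpins are shown because miR-34a was measured by both arms and miR-210 by only 1. Capitals mark the arms listed in the tables.
MIR34A hairpin: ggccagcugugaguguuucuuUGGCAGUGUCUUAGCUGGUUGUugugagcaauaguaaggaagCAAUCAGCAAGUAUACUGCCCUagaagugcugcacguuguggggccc
MIR210 hairpin: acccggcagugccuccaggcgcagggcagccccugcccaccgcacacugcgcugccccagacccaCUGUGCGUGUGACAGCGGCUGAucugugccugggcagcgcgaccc
On GRCh38, MIR34A lies on the minus strand at chr1:9151668-9151777. In GENCODE release 29 it lies inside an exon of the 1 transcript of its host RNA MIR34AHG that spans it. MIR210 lies on the minus strand at chr11:568089-568198, in an intron of all 4 transcripts of MIR210HG that span it. The deposited tables give names without coordinates, and the submitters' processing notes name another build, hg19.

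Values are RPKM, reads per kilobase and per 1000000 reads, as the authors deposited them, and rescaled RPKM, the same values after each column was rescaled to sum to 1000000. The columns summed to 5509071 RPKM in spheres and 26530004 RPKM in parental cells, so the scales stand 2.27 apart in log2. The tables hold no counts. From the commonest low value, 8.07 RPKM in spheres and 5.84 RPKM in parental cells, taken as 1 read on 22 nt, 682359 reads lay on miRNAs in spheres and 4542489 in parental cells. Of the values from 0.9 to 5 such steps, 62.3% of 231 in spheres and 57.6% of 278 in parental cells were whole reads at a length of 20 to 24 nt, within a relative tolerance of 0.0001. Whether the step is truly 1 read of that length is not settled by this. The 95% intervals are exact and cover counting error of these estimated reads only, since copies made by PCR are not independent molecules. miRNAs that averaged 10 rescaled RPKM or more over both libraries are called measured, and there were 269.

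All 4 squamous epithelial markers were measured. miR-205-5p, enriched in stratified epithelium, had 19458 rescaled RPKM in spheres and 21938 in parental cells. miR-203a, a miRNA of differentiating squamous cells, had 35056 in spheres and 2698 in parental cells. The 4 markers, miR-31-5p and miR-200c-3p included, summed to 71036 in spheres and 34600 in parental cells. As deposited, miR-203a was at least 2-fold higher in spheres and the other 3 at least 2-fold lower. Their median log2 fold there was -1.57, beside -2.25 over all measured miRNAs. The liver miRNA miR-122-5p was listed at 0 in both. Of 8 blood cell markers 1 was measured, with miR-144-3p and miR-144-5p at 0 in both libraries. Their summed level was 241 rescaled RPKM in spheres and 745 in parental cells. Most of it came from the 1 measured, miR-486-5p, at 207 in spheres and 741 in parental cells. Low values went the other way for miR-150-5p (13.2 in spheres and 0 in parental cells), miR-142-5p (12.3 and 3.25) and miR-451a (5.86 and 0.440). miR-142-3p did so too (2.80 and 0), while miR-223-3p did not (0 and 0.0845). The 5 mesenchymal markers summed to 76.5 in spheres and 28.9 in parental cells. The 2 endothelial markers summed to 445 in spheres and 192 in parental cells, so both sums were higher in spheres on the rescaled scale. As deposited, the log2 fold was -0.91 for the 1 mesenchymal marker measured, and the median was -1.20 for the 2 endothelial ones. No muscle marker was measured, with miR-206 at 0 in both libraries and a summed level of 17.0 in spheres and 1.98 in parental cells. The part of such cells in the results below was not tested.

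miR-210 was the most abundant of the members, and it was higher in spheres on both scales. It had 3137 RPKM as deposited in spheres and 2003 RPKM in parental cells. This rested on an estimated 388.5 reads in spheres and 343 reads in parental cells. As a share of the miRNA signal it made up 0.0569% in spheres (95% interval 0.0514% to 0.0629%) and 0.00755% in parental cells (0.00677% to 0.00839%). The intervals of the shares do not overlap, but they cover counting error only. Abundant miRNAs with small folds are set apart in the same way, such as miR-21-5p at 1.38-fold (1.37 to 1.38). How many measured miRNAs this holds for was not counted. The rescaled values of 569 in spheres and 75.5 in parental cells differ 7.54-fold (95% counting interval 6.50 to 8.74). The deposited values differ 1.57-fold (1.35 to 1.82), short of 2-fold, with an interval that lies wholly above 1.

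miR-34a-5p, the arm of miR-34a known to act on cell cycle genes, was higher in spheres as a share of miRNA. It had 829 RPKM as deposited in spheres and 688 RPKM in parental cells, on an estimated 102.7 reads in spheres and 118 in parental cells. Its share was 0.0151% in spheres (0.0123% to 0.0183%) and 0.00259% in parental cells (0.00215% to 0.00311%). These intervals do not overlap either, with the same limits as for miR-210. Its rescaled values were 151 in spheres and 25.9 in parental cells, a 5.80-fold difference (4.41 to 7.62). The deposited values differ 1.20-fold, and there the interval, 0.916 to 1.58, includes 1. A difference per read behind the authors' RPKM was thus not detectable at this depth for miR-34a-5p.

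miR-34a-3p, the opposite arm of the same hairpin, was listed at 0 in spheres and at 5.84 RPKM in parental cells. The parental value equals the step taken as 1 read and was the commonest value above 0. The 0 in spheres allows up to 3 reads, or 24.2 RPKM and 4.40 rescaled RPKM. Both libraries lie at or under this floor, so no fold is given, and the arm did not count as measured.

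**Figure D1:**
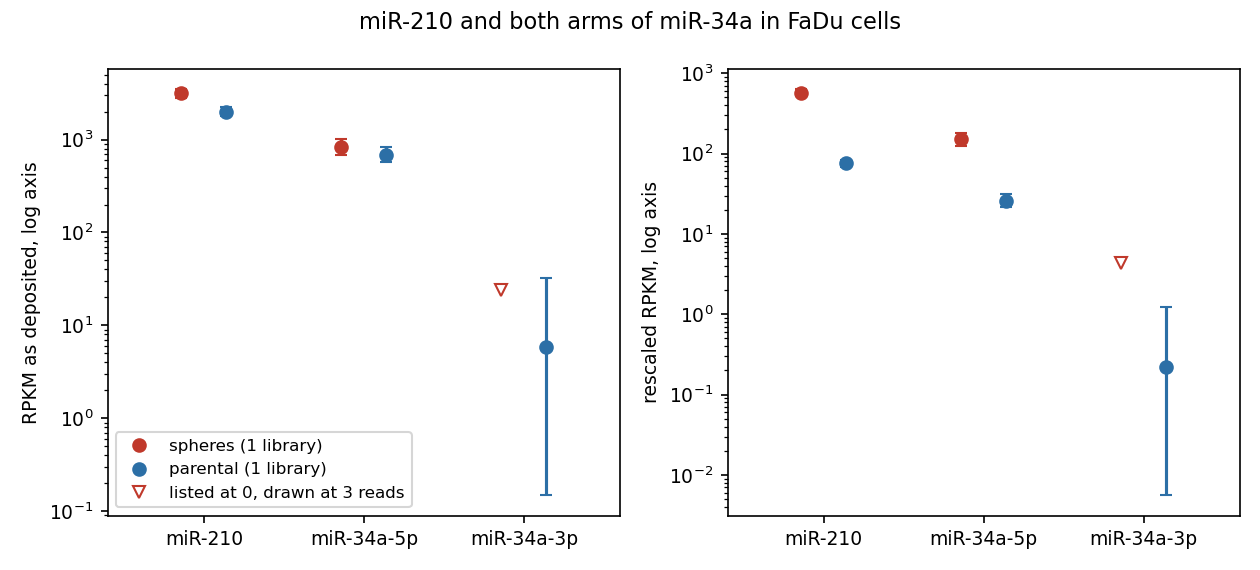
Levels of miR-210, miR-34a-5p and miR-34a-3p in the sphere and parental library, as deposited RPKM (left) and as rescaled RPKM (right), on log axes, with bars for the 95% counting interval. miR-210 and miR-34a-5p lie 7.54-fold and 5.80-fold higher in spheres on the right and 1.57-fold and 1.20-fold higher on the left. The open triangle stands for a value of 0, drawn at 3 reads.

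The order of the members was the same in both libraries, with miR-210 above miR-34a-5p and miR-34a-3p last. miR-210 stood 73rd of 672 names above 0 in spheres and 133rd of 903 in parental cells. miR-34a-5p stood 112th in spheres and 191st in parental cells. They stood 60 and 79 places higher in spheres, a measure that needs no scaling between libraries, though the orders differ in length. How far other names moved was not counted. miR-34a-3p shared the 695th place in parental cells, on a value that 43 names hold. The nearest names in this order could not be told from the members. In spheres miR-125b-5p, directly above miR-210, had 1.08 times its level (0.939 to 1.24), and miR-29b-3p, directly below, 0.973 times (0.843 to 1.12). In parental cells miR-660-5p above and miR-4792 below had 1.13 times (0.978 to 1.32) and 0.991 times (0.850 to 1.15). miR-34a-5p stood between miR-15a-5p and miR-181a-2-3p in spheres and between miR-342-3p and miR-143-3p in parental cells. Each of these 4 ratios to miR-34a-5p has an interval that includes 1.

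The folds of miR-210 and miR-34a-5p could not be told apart at this depth. miR-210 had 3.78 times the level of miR-34a-5p in spheres (3.04 to 4.75) and 2.91 times in parental cells (2.35 to 3.62). These intervals overlap. Without a pseudocount, the log2 fold of miR-210 exceeded that of miR-34a-5p by 0.38, with a 95% normal approximation of -0.057 to 0.81. This difference does not depend on how the libraries are scaled to each other, and its interval includes 0.

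Set among the 269 measured miRNAs, the members lie well up in the order of log2 folds. With 0.5 added to each rescaled value, the log2 fold of spheres over parental cells was 2.91 for miR-210 and 2.51 for miR-34a-5p. miR-210 took the 20th and miR-34a-5p the 25th place in that order. Both members that counted as measured were at least 2-fold higher, as were 62 of the 269, or 23.0%. Another 51, or 19.0%, were at least 2-fold lower, and the median was 0.02. On the deposited scale the median was -2.25, and 214 of the 269 (79.6%) were at least 2-fold lower. There 17 (6.32%) were at least 2-fold higher, with neither member among them. miR-210 had a log2 fold of 0.65 and miR-34a-5p of 0.27 on that scale. They belonged to the 28 measured miRNAs (10.4%) that lay above their parental value at all, at places 20 and 26.

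**Figure D2:**
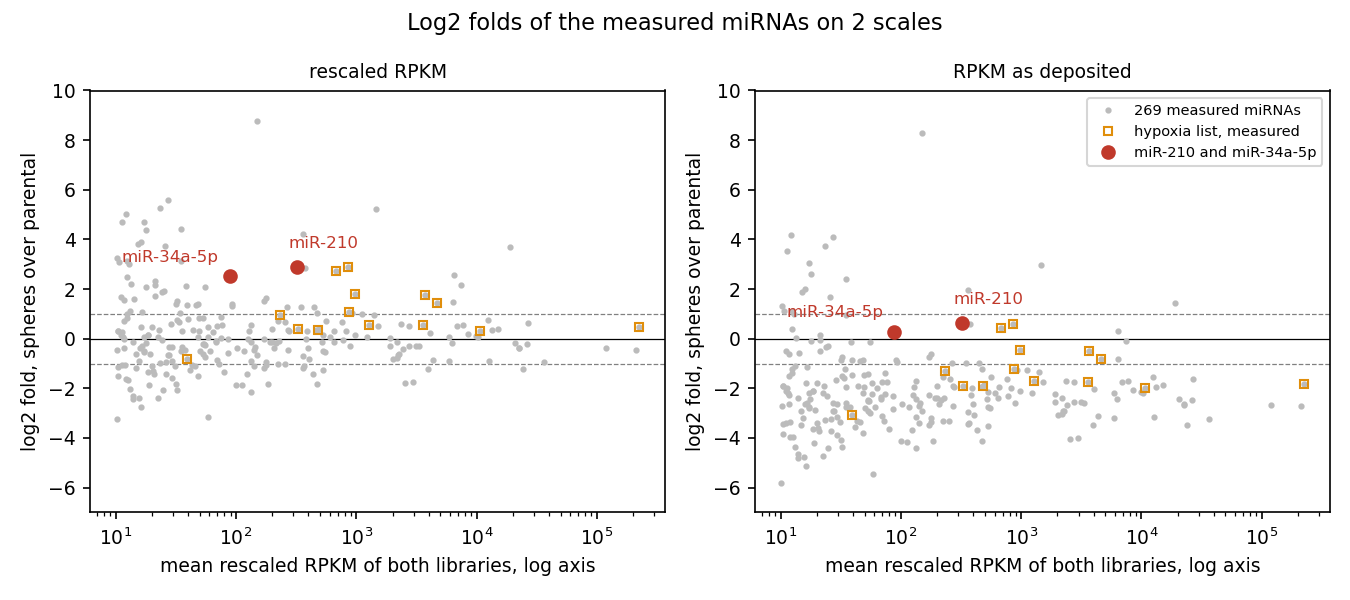
Log2 fold of spheres over parental cells against the mean rescaled RPKM (log axis) for the 269 measured miRNAs, on the rescaled scale (left) and as deposited (right), with dashed lines at 2-fold. miR-210 and miR-34a-5p lie at 2.91 and 2.51 on the left and at 0.65 and 0.27 on the right, where the median is -2.25.

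Other scalings between the libraries left both members far above 2-fold, except the deposited one. Under 5 other scalings the log2 fold lay between 2.69 and 2.97 for miR-210 and between 2.29 and 2.58 for miR-34a-5p. The lowest bound of any of these counting intervals was 1.92, for miR-34a-5p scaled to the upper quartile of measured miRNAs. The deposited scale differs from the rescaled one by construction, through the share of miRNA in the reads behind the RPKM. At 22 nt per miRNA that share was 12.1% in spheres and 58.4% in parental cells. What set that share in either library was not tested.

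**Figure D3:**
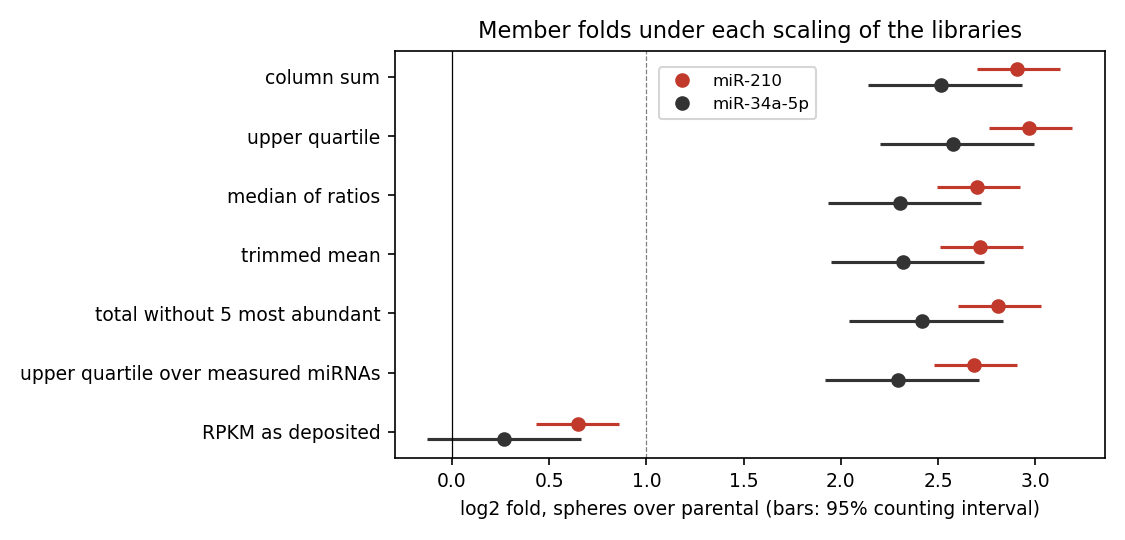
Log2 fold of spheres over parental cells for miR-210 and miR-34a-5p under each scaling of the libraries; bars are 95% counting intervals and the dashed line marks 2-fold. All scalings but the deposited one put both members between 2.29 and 2.97, and the deposited one gives 0.65 and 0.27.

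The miRNAs whose fold came nearest to each member were sought among measured ones within 4-fold of its mean level. Likeness here is the absolute difference in log2 fold over 2 libraries, so it says only that the folds are alike. For miR-210, 83 miRNAs were compared. The nearest were miR-24-3p (difference 0.033), miR-146b-5p (0.053), a miRNA induced by NF-kB, and miR-181c-5p (0.20). For miR-34a-5p, 115 were compared. Its nearest among these was miR-210, at a difference of 0.39, followed by miR-125b-2-3p (0.41) and miR-190b (0.42). Outside this range of level some folds lay closer, such as miR-200a-3p at a log2 fold of 2.57, beside 2.51 for miR-34a-5p. miR-24-3p had 1509 rescaled RPKM in spheres and 205 in parental cells, and miR-190b 89.8 in spheres and 20.7 in parental cells.

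The other members of the miR-34 and miR-449 family, which share seed letters with miR-34a-5p, were near or at the floor. miR-34c-5p had 15.4 RPKM in spheres and 33.5 RPKM in parental cells, on about 1.91 reads in spheres and 5.74 in parental cells. miR-34b-5p was listed at 0 in both libraries. miR-449a, miR-449b-5p and miR-449c-5p, known from multiciliated epithelium, were listed at 0 in spheres and at 2.92, 8.76 and 51.4 RPKM in parental cells. The parental value of miR-449c-5p is 1.94 rescaled RPKM, below the 4.40 that 3 reads are worth in spheres, so a difference as a share of miRNA was not detectable. As deposited, its 51.4 RPKM, on about 8.80 parental reads, lay above the 24.2 RPKM that 3 reads are worth in spheres. On that scale it was thus lower in spheres, unlike miR-34a-5p, but on few reads. miR-34a-5p made up 151 of the 153 rescaled RPKM that the 6 names summed to in spheres and 25.9 of 29.6 in parental cells.

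The 2 arms of miR-34a were very unequal. In spheres miR-34a-5p was at least 34.2-fold higher than miR-34a-3p if 3 reads are taken for the 0. This limit and the one on the sphere share below use 3 reads, fewer than the exact interval allows. In parental cells it had 118 times the level of miR-34a-3p, on 1 read of that arm (20.7 to 4693). In spheres 0 of the 102.7 reads on both arms were miR-34a-3p, which allows a share of up to 2.92% if 3 reads are taken for the 0. In parental cells the share of miR-34a-3p was 0.842%, with an exact interval of 0.0213% to 4.60%. A difference in arm use was not detectable at this depth. Other hairpins are set beside it by their minor arm, the one with fewer reads over both libraries together. Of 76 hairpins with both arms named and at least 100 estimated reads on the major arm in each library, 11 had a minor arm at 0 in spheres and 39 had one under 1% in parental cells. The median minor arm was 0.561% in spheres and 0.963% in parental cells. Among the 13 hairpins with at most 1000 reads on the major arm in each library, miR-34a included, it was 2.30% in spheres and 1.73% in parental cells, with 4 of the 13 at 0 in spheres and 5 under 1% in parental cells. In miR-1307 alone of the 76, the minor arm so defined, miR-1307-3p, held the larger share in spheres, at 62.6% there and 33.0% in parental cells. The limit of 100 reads was chosen after the values were seen, and miR-34a passed it with 102.7 reads in spheres.

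**Figure D4:**
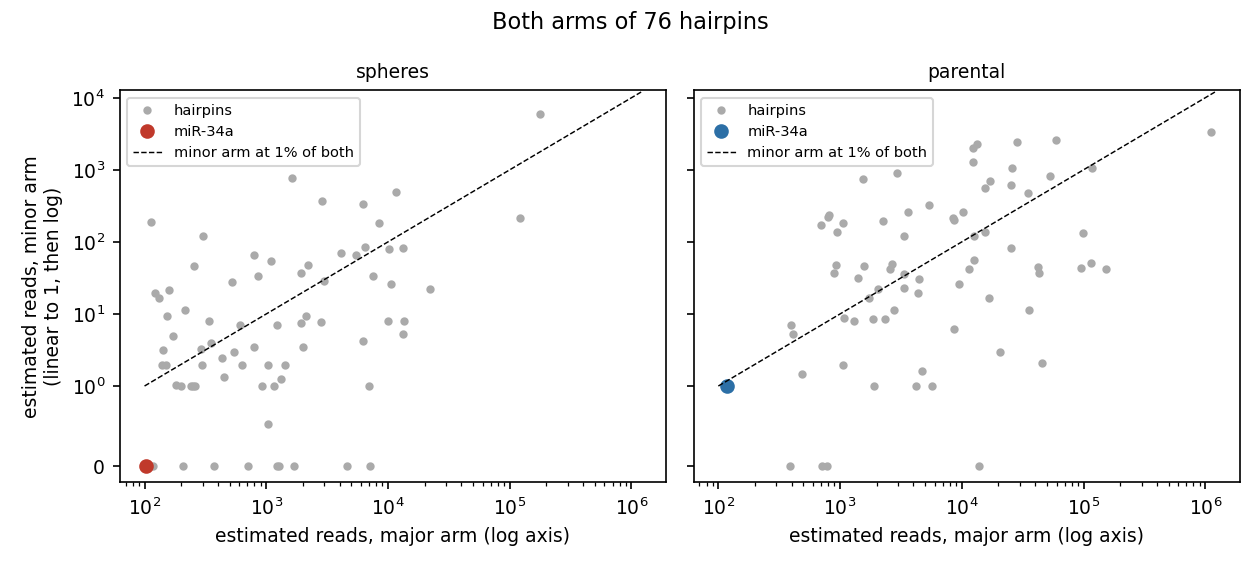
Estimated reads of the minor arm (fewer reads over both libraries together) against those of the major arm for 76 hairpins, in the sphere library (left) and the parental library (right); both axes are logarithmic, the vertical one linear up to 1 read. miR-34a lies at 0 reads of miR-34a-3p in spheres and at 1 read in parental cells, beside other hairpins on 0 or 1.

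Other miRNAs reported to rise in hypoxic cells were higher in part, as shares of miRNA. Of 15 listed, 14 were measured, with 6 at least 2-fold higher in spheres, 0 at least 2-fold lower and 8 within 2-fold. Of all measured miRNAs, 23.0% were at least 2-fold higher and 19.0% at least 2-fold lower. The median log2 fold of the list was 0.75, beside 0.02 over all measured miRNAs. The folds of miR-24-3p and miR-181c-5p were 7.35 (6.72 to 8.03) and 6.56 (5.94 to 7.25). miR-107 was 3.51-fold higher, miR-103a-3p 3.37-fold, miR-181a-5p 2.70-fold and miR-26b-5p 2.08-fold (1.92 to 2.26). Under 4 of the 5 other scalings miR-26b-5p was no longer 2-fold higher. miR-103a-3p and miR-107 are near-identical, so the division of reads between them is uncertain. Both are among the 6 counted as higher. The most abundant of the list, miR-21-5p and miR-26a-5p, had log2 folds of 0.46 and 0.30. miR-23b-3p was 1.93-fold higher (1.65 to 2.26) and passed 2-fold under 1 of the 5 other scalings. miR-23a-3p and miR-27a-3p were 1.29-fold and 1.45-fold higher, and miR-155-5p and miR-181b-5p 1.29-fold and 1.46-fold. miR-424-5p was lower, at 0.568-fold (0.338 to 0.903). On the deposited scale 0 of the 14 were at least 2-fold higher, beside 6.32% of all measured miRNAs, and 9 were at least 2-fold lower, beside 79.6%. The median there was -1.52, beside -2.25 over all. There miR-24-3p (0.61) and miR-181c-5p (0.45) alone of the 14 lay above 0, beside 10.4% of all measured miRNAs. Both lay below the 0.65 of miR-210.

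**Figure D5:**
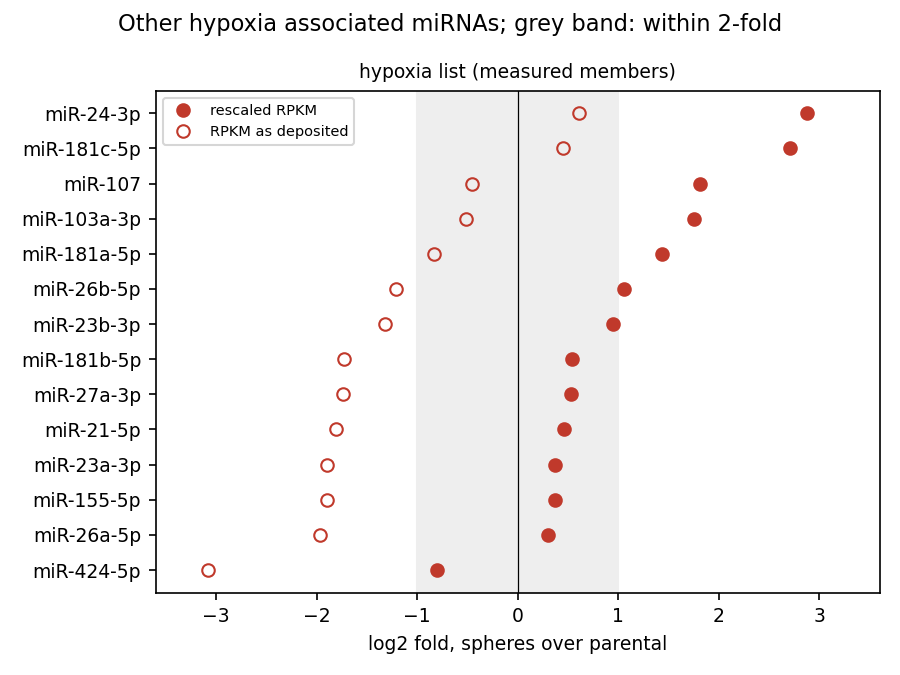
Log2 fold of spheres over parental cells for the 14 measured members of the hypoxia list, as rescaled (filled) and as deposited RPKM (open), with a grey band for less than 2-fold. On the deposited scale miR-24-3p and miR-181c-5p of the hypoxia list alone lie above 0, beside 10.4% of all measured miRNAs.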

How the data were processed

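Small RNA of 2 FaDu samples was sequenced, 1 sphere library and 1 parental library, using TruSeq small RNA libraries with a size selection and 1 µg of input, per the labels' protocols. The authors deposited 1 RPKM value for each of 2038 names, per the file headers. The submitters' processing notes name hg19. Aligner, counter and annotation release: not given in the sources used here.

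No test was planned, since each group has 1 library, and no count model was used on RPKM. Each column was rescaled to sum to 1000000, 0.5 was added and log2 folds of spheres over parental were taken. Reads were estimated as RPKM over the commonest value above 0, taken as 1 read on 22 nt. Folds carry exact (Clopper-Pearson) 95% intervals of these reads, and are ratios without a pseudocount. Members and lists were chosen with earlier results of these data known. Named miRNAs are the members, list members at least 2-fold different or among the 4 most abundant, the seed family, the 3 nearest in fold and the neighbours in level, and markers. The other measured members of the hypoxia list, outside that rule, were named after their values were seen. Scaling, pseudocount and filter alternatives were tried. The steps were tested on simulated data. Python 3.11.15, numpy 2.4.6, pandas 2.3.3, scipy 1.17.1 and matplotlib 3.10.9 were used. A further planned list is not reported here.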

Additional observations from a re-analysis of the deposited data

How the results depend on the processing

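The deposited RPKM moved the members most, to log2 folds of 0.65 for miR-210, 0.27 for miR-34a-5p and 0.26 for both arms of miR-34a summed. Each stayed positive and below 2-fold. The difference lies in construction, since the column sums differ. The median of ratios and the upper quartile over measured miRNAs put miR-210 at 2.70 and 2.69, just below its counting interval. This quartile, and every scaling of the hypoxia list, was chosen after seeing the data. Pseudocounts of 5 and 0.05 kept both members within their intervals. The number of higher and lower miRNAs was 17 and 214 of the 269 as deposited, 193 and 180 with no filter, and 23 and 18 at a mean of at least 100. A filter changes how many miRNAs are compared, so the counts under other filters cannot be set against the 62 and 51 of 269. Asking the whole interval to pass 2-fold left 45 higher and 17 lower, fewer by construction. As deposited, 0 hypoxia list members were higher and 9 lower, and the median of ratios and the quartile over measured miRNAs each made 1 hypoxia list member lower, miR-424-5p, named after its values were seen. The mature lengths of all members are 22 nt, so read estimates at their own length are the same. For miR-34a-3p no fold and no change in arm ratio could be given under any setting, since both libraries lie at or under 3 reads. Leaving out a replicate was not possible. No paired analysis was possible because each group holds a single library. The estimated miRNA reads, fewer in spheres, limit low values.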

Other observations

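In reads of 22 nt, miR-210 came to 388.5 in spheres and 343 in parental cells, the parental value being whole within 0.001 reads. miR-34a-5p came to 102.7 reads in spheres and 117.8 in parental cells, neither of them whole. The 1 read of miR-34a-3p in parental cells was whole. Under this estimate the deposited values of miR-34a-5p in both libraries include fractions of reads.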
